A study of Mus musculus with 5 samples.

Results

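The 10 genes described here regulate hair growth and were followed in the skin of hairless mice. They were the hairless gene Hr itself, the signals Wnt10b, Shh and Fgf5, and the transcription factors Lef1, Msx2, Hoxc13, Foxn1, Dlx3 and Foxq1. They were chosen by name, as known regulators of the hair matrix and the hair cycle together with the gene mutated in this strain, and all 10 are among the 36716 genes counted. The rule used no measured value, but the members and the tests were chosen with earlier results of these data known. Scratched skin held less Foxq1 transcript than intact skin after 24 h. Of the 5 members with enough counts to be tested there, Foxq1 was the only 1 called, and 12.8% of all genes tested were called. Dlx3 was called lower in scratched skin after 7 d, as 1 of 5 members tested beside 4.28% of all genes, a call that several other settings ended. Hr was called lower in 1 comparison, that of scratched but otherwise untreated skin with naive skin at 24 h. Over the mice, 7 members followed the keratins of the hair shaft, in a test that was not run over all genes. Foxq1 did not pass that test. By Spearman's rho, Hr and Wnt10b passed it, with weak correlations, only after the group means were removed.

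The hair follicle passes through cycles of growth, regression and rest. Growth starts when signals, among them Wnt ligands and sonic hedgehog, reach the stem cells at the base of the resting follicle, and the matrix cells of the growing bulb then form the hair shaft and the inner root sheath around it. A set of transcription factors in the matrix and in the young shaft switches on the hair keratins and their partner proteins. HR, the protein of Hr, is a corepressor that acts with nuclear receptors such as the vitamin D receptor, and mice without working HR lose their first coat and do not grow it again because the follicles fail to re-form.

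Upper back skin was taken from 153 female SKH-1 mice, aged 7 to 8 weeks and housed 4 per cage. All of them, the controls included, carry the mutated Hr, so that no group has an intact Hr gene. Each of 18 groups held 8 mice and the naive group 9 mice. Intact skin received 10 μL of PBS or of titanium dioxide (nTiO2), zinc oxide (nZnO) or silver (nAg) nanomaterial. Scratched skin was stroked 12 times with a metal brush before it received 1 of the same 4 liquids, and mice called scratched only were given no liquid. Skin was collected after 24 h or 7 d, whereas naive mice had neither scratching nor liquid. Counts are unique molecular identifiers (UMIs), that is, tagged RNA molecules read near the 3′ end of each gene, and levels are given as CPM, the count of a gene per 1000000 counts of the mouse. Because only the end of a transcript is read, the counts do not tell an intact Hr transcript from an altered one.

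Totals per mouse lay between 201053 and 4028559 counts (median 1226021) and RNA integrity numbers between 7.7 and 9.9. In 1 mouse, replicate 3 of the 7 d PBS group, the total was under 500000, and in 1 mouse of the 7 d nZnO group the labels contradict each other. Some of the results resting on these mice, but not all, are also given without 1 or the other of them. The libraries were sequenced in 5 pools, which are the 5 deposited samples. Pools 1 to 3 held the 24 h groups. At 7 d the PBS and nTiO2 mice with intact skin were in pools 1 to 3 and all scratched mice in pools 4 and 5, so that for these liquids pool and scratching cannot be told apart. The nZnO and nAg mice with intact skin at 7 d were in pools 4 and 5, which held none of the intact PBS mice of 7 d. When nZnO or nAg is set against PBS there, pool and nanomaterial cannot be told apart. The samples were skin by their markers, since the summed level of 8 genes of the interfollicular epidermis was 6975 to 21380 CPM over all mice. Markers of skeletal muscle were also counted in every mouse and varied widely, from 72.1 to 13840 CPM for 9 genes. In whole skin, fewer cells of a type and less RNA per cell cannot be told apart.

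The members were counted to very different extents. Hr, Hoxc13, Foxq1 and Dlx3 had a count in all 153 mice and Foxn1 in 152. Msx2 was counted in 146 mice, Lef1 in 132, Wnt10b in 124, Fgf5 in 114 and Shh in 32. A gene was tested when, in at least 1 group of the comparison, 75% or more of the mice had over 5 of its counts, which 5 members (Hr, Hoxc13, Foxn1, Dlx3 and Foxq1) passed in the comparisons averaged over the 4 liquids. Lef1, Msx2, Shh, Fgf5 and Wnt10b did not pass, and for them fold changes come from a fit with no count filter. The test was the quasi-likelihood test of edgeR, and a gene was called when the Benjamini-Hochberg adjusted p over all genes tested was under 0.05 and the log2 fold change at least 0.33 in size. P-values measure the spread between mice, and cage was not modelled. In counts simulated for the averaged 24 h comparison of 12429 genes, 98.5% of genes changed 2-fold, 91.0% of those changed 1.5-fold and 31.3% of those changed by 0.32 on the log2 scale were called, the last being just under the fold threshold itself.

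Over all 19 groups, differences were found for 4 of the 5 tested members. Foxq1 (edgeR adjusted p = 4.75e-09), Hoxc13 (0.00646), Dlx3 (0.0175) and Hr (0.0326) passed an adjusted p of 0.05, and Foxn1 (0.267) did not. Of all 12757 genes tested, 34.0% passed the same test. The same 4 members passed with sequencing pool as a covariate, when 20.6% of genes passed. With no count filter Hoxc13, Dlx3, Foxq1 and Fgf5 passed (adjusted p = 0.0127, 0.0384, 1.95e-08 and 0.0399), Hr did not (0.0675), and 11.0% of 36709 genes did. When the groups were put in order of their medians, all 18 pairs of neighbours overlapped for each of the 10 members, and so did the groups with the lowest and the highest median. Of the 1710 pairs of groups over the members, 2 did not overlap, and over all genes with a count 0.0891% of pairs did not. These were Hr in scratched only at 24 h (14.7 to 24.5 CPM) against nAg on intact skin at 7 d (25.3 to 38.2 CPM), and Wnt10b in scratched only at 24 h (0 to 1.32 CPM) against scratched nTiO2 at 7 d (1.37 to 3.39 CPM).

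**Figure D1:**
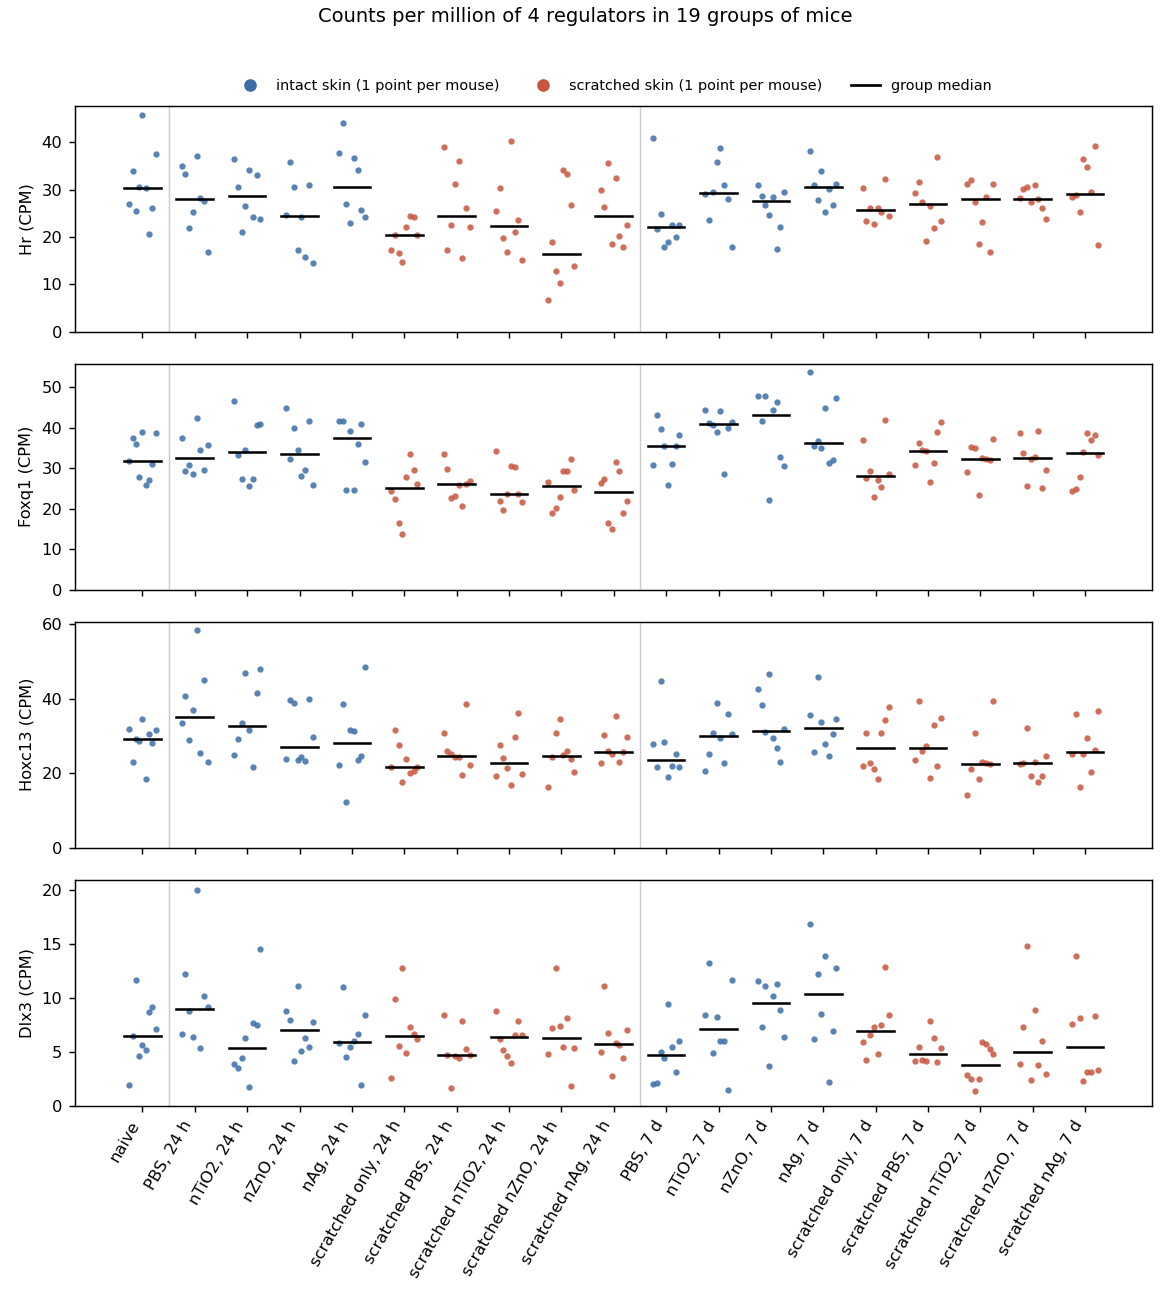
Levels in CPM (vertical axes) of the regulators with the most counts in each of the 19 groups (horizontal axis), with 1 point per mouse, intact skin in blue and scratched skin in red, and a bar at the group median. The Foxq1 points of scratched skin at 24 h sit lower than those of intact skin, with medians of 23.7 to 26.0 CPM against 32.6 to 37.6 CPM.

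Hr lies on chromosome 14 from 70789652 to 70811002 (GRCm39, plus strand, 19 exons). It stood at 6.66, 26.6 and 45.8 CPM (lowest, median and highest of 153 mice). Naive mice had 20.7 to 45.8 CPM (median 30.2, n = 9). On intact skin at 24 h the medians were 27.9 CPM with PBS, 28.6 with nTiO2, 24.5 with nZnO and 30.5 with nAg, in a range of 14.6 to 44.0 CPM. The naive and intact groups thus shared most of their range. On scratched skin at 24 h the medians were 24.4 CPM with PBS, 22.3 with nTiO2, 16.4 with nZnO and 24.4 with nAg, in a range of 6.66 to 40.4 CPM. In each of the 4 pairs the scratched median was below the intact one, and 22 of 32 scratched mice were below the median of the 32 intact mice, but the ranges overlapped. The averaged log2 fold change was -0.23 (SE 0.11, edgeR adjusted p = 0.117), which did not pass the test. At 7 d the 4 intact medians ran from 22.1 (PBS) to 30.6 CPM (nAg) and the 4 scratched medians from 27.0 (PBS) to 29.2 CPM (nAg). The averaged log2 fold change at 7 d was -0.01 (SE 0.08, 95% interval -0.17 to 0.14 or -10.8% to 10.1%), and 15 of 32 scratched mice were below the intact median.

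Mice that had only been scratched had less Hr transcript than naive mice. At 24 h these 8 mice had 14.7, 20.4 and 24.5 CPM (lowest, median and highest), against 20.7, 30.2 and 45.8 CPM in the 9 naive mice. All 8 were below the naive median and 5 were below every naive mouse, while the ranges overlapped between 20.7 and 24.5 CPM. The log2 fold change was -0.64 (SE 0.14, edgeR adjusted p = 0.0165), in a comparison in which 1.37% of all genes were called lower. The call held when each mouse was left out in turn (-0.69 to -0.55) and with sequencing pool as a covariate (-0.83, adjusted p = 0.0359). The scratched only and naive mice shared only pool 2, with 4 mice of each, on which the value with pool rests. The call was lost with the hair keratin level described below as a covariate (-0.53, adjusted p = 0.0864). The summed hair keratin level was 1.82 to 255 CPM (median 25.8) in the scratched only mice and 0 to 118 CPM (median 2.88) in the naive mice. The stem cell and outer root sheath genes stood at 402 to 886 CPM (median 616) against 717 to 1101 CPM (median 843), and the neutrophil and monocyte genes at 4291 to 7853 CPM (median 5370) against 3365 to 5244 CPM (median 4540). The part of the last 2 lists in the Hr result was not tested. After 7 d the scratched mice had 22.8, 25.7 and 32.2 CPM, and 6 of 8 were below the naive median. Scratched skin that also received PBS had a higher Hr level than scratched skin without liquid at 24 h by a log2 fold change of 0.39 in edgeR (unadjusted p = 0.0357, adjusted p = 0.9997), which did not pass the test. Of 12 partners of HR and genes known to be repressed by it, 0 were called by edgeR in the averaged 24 h comparison (5 at an unadjusted p under 0.05), where their median log2 fold change was -0.08 beside -0.003 over all genes, and 0 at 7 d (5 at an unadjusted p under 0.05). Over all genes, 4630 of 12429 at 24 h and 3193 of 12451 at 7 d had an unadjusted edgeR p under 0.05. The smallest p at 24 h belonged to the corepressor gene Ncor1 (-0.18, SE 0.04, edgeR adjusted p = 4.19e-04) and to the Wnt inhibitor gene Sostdc1 (-0.33, SE 0.09, adjusted p = 0.00643), both under the fold threshold.

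Among the signals, Wnt10b, a Wnt ligand of the early growing follicle (chromosome 15, 98668593 to 98690045), had 345 counts in all and a median of 1.56 CPM. Its level was 0 in 5 of the 8 mice scratched without liquid at 24 h, and the other 3 had up to 1.32 CPM. Every naive mouse had a count, at 0.738 to 4.07 CPM. The scratched group held 4 counts and the naive group 24. With no count filter the log2 fold change was -2.39 (SE 0.61, edgeR adjusted p = 0.0352), where 0.555% of 28669 genes were called lower. With the filter Wnt10b was not tested. In the 4 pairs with liquid at 24 h, Wnt10b had medians of 0.893 to 1.31 CPM in scratched and 1.28 to 2.09 CPM in intact skin, and the averaged value of -0.44 (SE 0.32, edgeR adjusted p = 0.589) did not pass the test. At 7 d the median was 2.06 CPM in scratched and 1.73 CPM in intact skin, with 1 of 4 pairs lower in scratched skin, and the averaged value was -0.03 (SE 0.26).

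Shh, the sonic hedgehog ligand that drives the growth of the follicle into the dermis (chromosome 5, 28661813 to 28672254), had 48 counts in the whole series and at most 3 in a mouse. It was at 0 in 121 of 153 mice, in all naive mice, and in all mice given nAg at 24 h on intact or scratched skin. These counts are too few to compare groups. Fgf5, the signal that ends the growth phase (chromosome 5, 98401780 to 98452320), stood at 0, 1.18 and 11.8 CPM (lowest, median and highest of all mice). Its group medians were highest with PBS at 24 h (2.51 CPM) and lowest with nTiO2 on intact skin at 7 d (0.334 CPM). Scratched and intact skin overlapped at both times, and with no count filter the averaged log2 fold changes were -0.18 (SE 0.30) at 24 h and -0.11 (SE 0.38) at 7 d, neither of which passed the test.

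**Figure D2:**
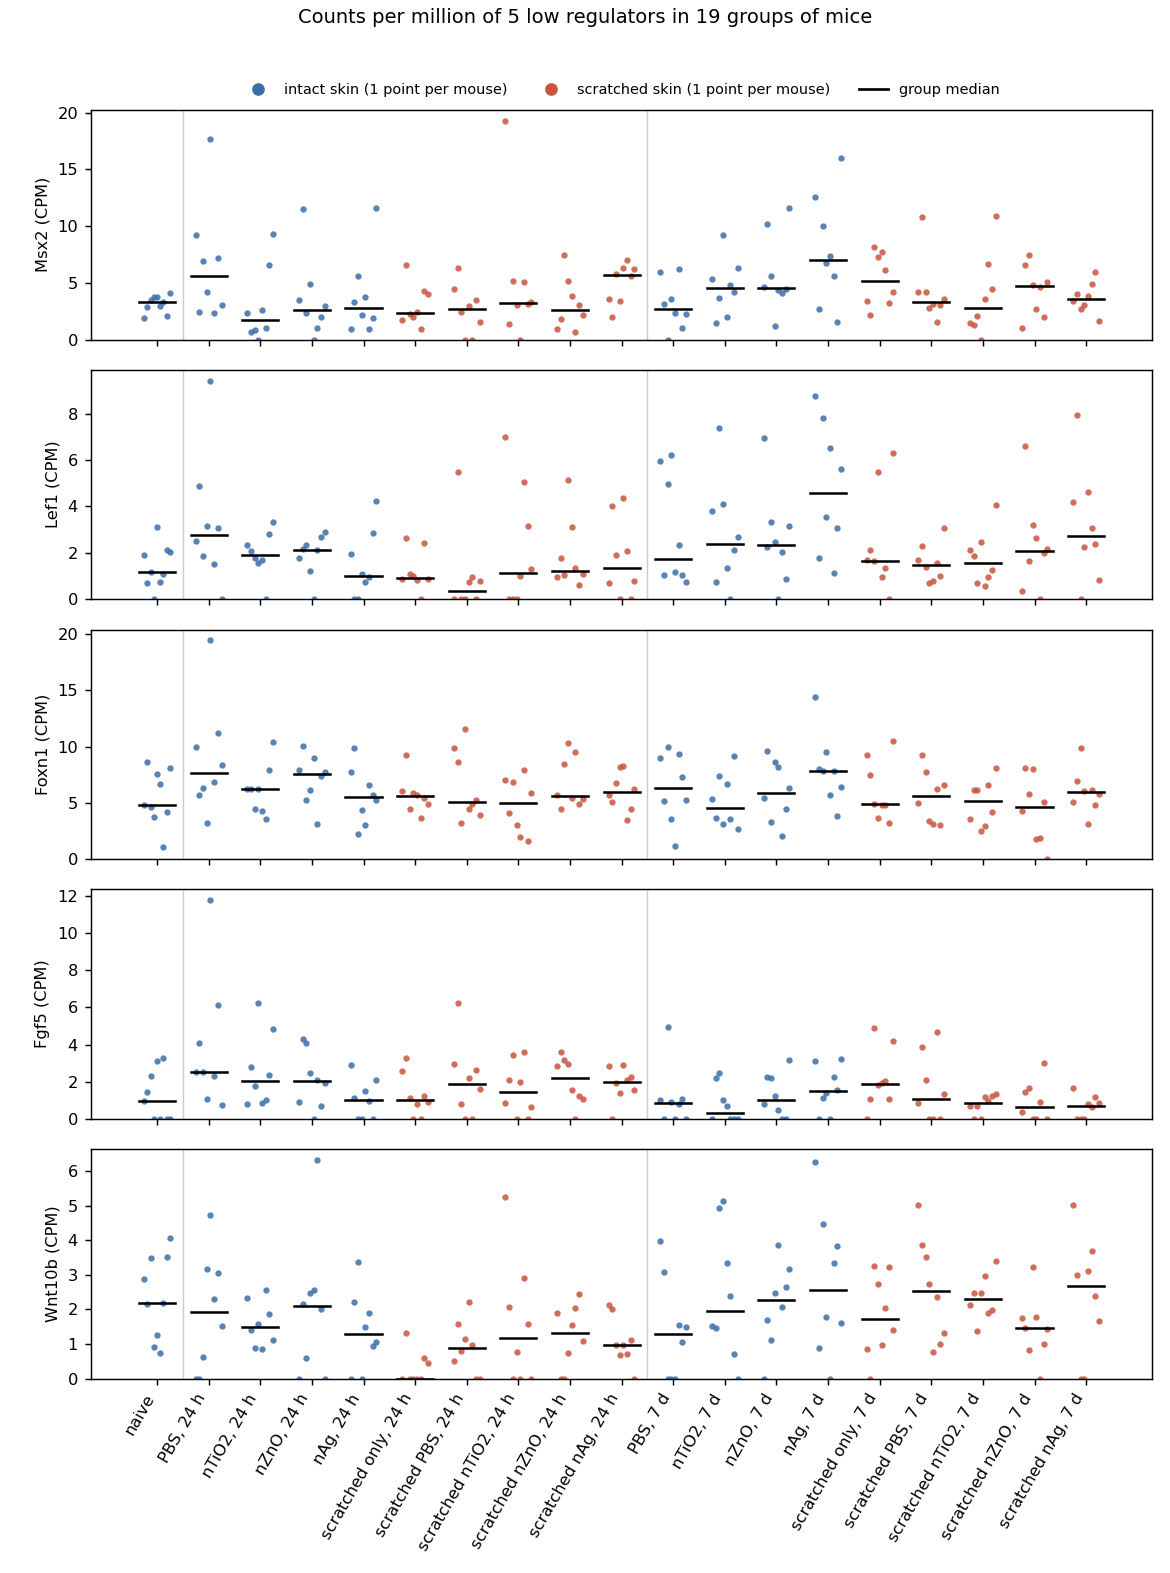
Levels in CPM (vertical axes) of 5 regulators with few counts in each of the 19 groups (horizontal axis), with 1 point per mouse, intact skin in blue and scratched skin in red, and a bar at the group median. A few mice stand far above the rest of their group, such as the PBS mouse at 24 h with 17.7 CPM of Msx2 and 11.8 CPM of Fgf5.

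Lef1, which joins beta-catenin to switch on Wnt targets in the matrix (chromosome 3, 130903919 to 131018005), had a median of 1.78 CPM and no count in 21 mice. At 24 h its levels were 0, 2.01 and 9.43 CPM in 32 intact mice and 0, 0.982 and 7.01 CPM in 32 scratched mice. At 7 d they were 0, 2.58 and 8.76 CPM in intact and 0, 1.93 and 7.94 CPM in scratched skin. Scratched medians were lower in 3 of 4 pairs at 24 h and 4 of 4 at 7 d, with full overlap. The log2 fold changes with no count filter, -0.34 (SE 0.33, edgeR adjusted p = 0.795) and -0.55 (SE 0.27, adjusted p = 0.366), did not pass the test. Msx2, a homeobox factor that acts below BMP signals in the matrix (chromosome 13, 53620914 to 53627110), had a median of 3.52 CPM. Its scratched median was lower than the intact one in 2 of 4 pairs at each time, and its log2 fold changes of -0.12 (SE 0.26) at 24 h and -0.39 (SE 0.22) at 7 d did not pass the test. Both genes had their highest group median in intact skin 7 d after nAg, at 4.57 CPM for Lef1 and 7.03 CPM for Msx2. That group was sequenced in pools 4 and 5 only.

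Foxq1, a forkhead factor of the forming hair shaft whose loss gives mice a satin coat, lies on chromosome 13 from 31740117 to 31744959 and has 1 exon. Naive mice had 25.8 to 38.9 CPM (median 31.8). On intact skin at 24 h the medians were 32.6 CPM with PBS, 33.9 with nTiO2, 33.4 with nZnO and 37.6 with nAg. The naive mice and these 4 groups lay close together. On scratched skin at 24 h the medians were 26.0 CPM with PBS, 23.7 with nTiO2, 25.6 with nZnO and 24.1 with nAg, and 25.2 CPM without liquid. Over the 4 liquids the levels were 24.7, 34.5 and 46.7 CPM in 32 intact mice and 15.0, 25.2 and 34.2 CPM in 32 scratched mice. All 32 scratched mice were below the intact median, 16 were below every intact mouse and 17 intact mice were above every scratched one. The groups overlapped between 24.7 and 34.2 CPM.

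The averaged log2 fold change of Foxq1 at 24 h was -0.44 (SE 0.07, edgeR adjusted p = 4.06e-06), so that its level fell by 26.0% (95% interval of the change, -33.0% to -18.3%). Of the 12429 genes tested, 6.31% were called lower and 12.8% in either direction. Foxq1 was called under all 13 alternatives tried, with values from -0.46 to -0.38. With sequencing pool as a covariate it was at -0.43 (adjusted p = 1.20e-05). In the 5 scratching pairs of 24 h taken singly the log2 fold change was below 0 each time, at -0.37 with PBS, -0.39 with nTiO2, -0.39 with nZnO, -0.59 with nAg and -0.44 without liquid, with edgeR adjusted p between 0.0867 and 0.187, none of which passed the test. An annotated antisense RNA gene, 1700018A04Rik, overlaps the 3′ end of Foxq1, and since the sources do not give whether counting used strand, reads of both genes cannot be told apart. The same holds for Msx2 and Gm33763.

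Genes of other cells moved with scratching at 24 h. Of 8 neutrophil and monocyte genes, 7 rose and 0 fell, and their summed level was 3833 to 10060 CPM in scratched against 2521 to 6148 CPM in intact skin. Of 7 genes of follicle stem cells and the outer root sheath, 0 rose and 2 fell (Cd34 at -0.64 and Krt15 at -0.65), with summed levels of 375 to 941 CPM against 653 to 1299 CPM. Of 8 sebaceous gland genes 6 fell, and of 8 proliferation genes 6 rose. Of 8 interfollicular genes 1 rose (Krt14 at 0.50) and 2 fell (Krt77 at -1.68 and Flg2 at -0.78), and of 8 hair cortex keratins and of 8 inner root sheath genes 0 were called by edgeR (0 and 0 at an unadjusted p under 0.05). The part of these cells in the Foxq1 result was not tested, other than for the hair keratins, with whose level as a covariate Foxq1 stayed at -0.42 (edgeR adjusted p = 6.44e-06).

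Over all 153 mice, Foxq1 was higher where the stem cell and outer root sheath genes were higher (Pearson r = 0.62, Spearman rho = 0.58) and lower where the neutrophil and monocyte genes were higher (r = -0.52, rho = -0.52). These are 2 of 110 relations between the 10 members and 11 marker lists on log2(CPM + 1), each with a permutation test of 100000 resamples, and both had an adjusted p of 5.2e-05, the smallest the resamples allow. Without the 2 mice farthest from the median of the list, r was 0.61 and -0.51. Within the 5 pools rho was 0.33 to 0.79 and -0.53 to -0.32. After removal of the group means rho was 0.33 and -0.37. Foxq1 was related to other lists too, among them melanocytes (rho = 0.40) and dermal papilla (rho = -0.37), with a permutation p adjusted over 110 relations of 5.2e-05 for each. For these 2 lists rho was 0.23 and -0.11 after removal of the group means. Hr showed the same signs more weakly, with r = 0.48 and rho = 0.43 for the stem cell list and r = -0.33 and rho = -0.30 for the neutrophil list (adjusted p of rho = 5.2e-05 and 7.9e-04). For Hr the first relation was between 0.06 and 0.72 in the pools and the second between -0.58 and 0.11. Without the 2 farthest mice r was 0.46 and -0.27.

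Hoxc13, the homeobox factor that binds hair keratin genes and is needed for a firm hair shaft, lies on chromosome 15 from 102829538 to 102837249. The levels at 24 h were 12.4, 31.5 and 58.3 CPM in 32 intact and 16.2, 24.9 and 38.5 CPM in 32 scratched mice. Scratched medians were lower in 4 of 4 pairs, and 28 of 32 scratched mice were below the intact median, with overlap over most of the range. The averaged log2 fold change was -0.33 (SE 0.09, edgeR adjusted p = 0.00559), which passed the adjusted p but fell just short of the fold threshold. On adjusted p alone 13.0% of genes were lower. Other settings moved it across, and it was called with DESeq2 (-0.33, adjusted p = 0.00348) and with sequencing pool as a covariate (-0.34, adjusted p = 0.00548). The antisense gene Gm62014 overlaps its 3′ end, with the same limit as for Foxq1. At 7 d the levels of Hoxc13 were 18.9, 29.4 and 46.7 CPM in intact and 14.2, 23.3 and 39.4 CPM in scratched skin, and the averaged log2 fold change was -0.26 (SE 0.09, adjusted p = 0.0376), again under the fold threshold. It was lost at 7 d with the hair keratin level as a covariate (-0.14, adjusted p = 0.371).

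Dlx3, a homeobox factor of the matrix, the inner root sheath and the shaft (chromosome 11, 95010937 to 95016122), ran from 1.37 to 20.03 CPM. At 24 h it stood at 1.71, 6.48 and 20.03 CPM in 32 intact and 1.61, 5.51 and 12.7 CPM in 32 scratched mice, and the averaged log2 fold change of -0.29 (SE 0.15, edgeR adjusted p = 0.171) did not pass the test. Foxn1, the nude gene, needed in the shaft for hair to break through the skin (chromosome 11, 78248403 to 78277384), stood at 2.25, 6.27 and 19.4 CPM in intact and 1.58, 5.55 and 11.5 CPM in scratched skin at 24 h. Its averaged log2 fold changes of -0.17 (SE 0.14, adjusted p = 0.402) at 24 h and -0.32 (SE 0.17, adjusted p = 0.214) at 7 d did not pass the test.

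**Figure D3:**
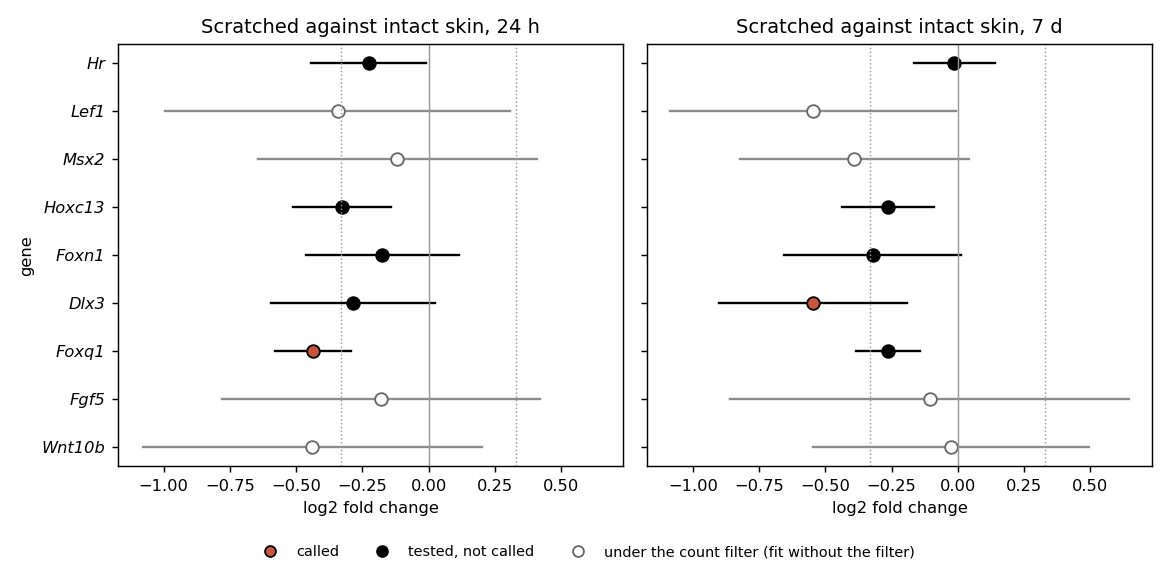
Log2 fold change of scratched against intact skin averaged over PBS, nTiO2, nZnO and nAg (horizontal axes) for 9 members (vertical axis) at 24 h and 7 d, with 95% intervals and dotted lines at the fold threshold of 0.33. Foxq1 at -0.44 after 24 h and Dlx3 at -0.55 after 7 d are the called members, open circles are members under the count filter, and Shh is left out because of its few counts.

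After 7 d, Dlx3 was the only member called between scratched and intact skin. Its levels were 1.41, 7.11 and 16.9 CPM in 32 intact and 1.37, 4.48 and 14.9 CPM in 32 scratched mice. Of the scratched mice 24 were below the intact median, and 3 of 4 pairs had a lower scratched median, the exception being PBS (4.76 CPM scratched and 4.71 CPM intact). The other intact medians were 7.10 CPM with nTiO2, 9.49 with nZnO and 10.4 with nAg, and naive mice had 6.49 CPM. Mice scratched without liquid, which are not in this average, had a median of 6.91 CPM at 7 d, not lower than that of naive mice. The averaged log2 fold change was -0.55 (SE 0.18, edgeR adjusted p = 0.0353), in a comparison in which 1.05% of 12451 genes were called lower and 4.28% in either direction. The call was lost without each liquid but PBS, since the edgeR adjusted p was 0.221 without the nTiO2 pair, 0.130 without nZnO and 0.111 without nAg. Without the PBS pair it was 0.0142 (-0.75). In the nZnO and nAg pairs alone, where pool could be a covariate, the value was -0.63 (adjusted p = 0.135). It was 0.0404 without the shallow mouse and 0.0393 without the mouse with conflicting labels.

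Of the 8 hair keratins tested at 7 d, 0 were called by edgeR and 6 had an unadjusted p under 0.05, as had 3193 of all 12451 genes. Their summed level was 0.832, 17.9 and 619 CPM (lowest, median and highest) in scratched and 2.06, 83.6 and 673 CPM in intact skin, and their median log2 fold change was -1.14. With this level as a covariate Dlx3 was at -0.37 (edgeR adjusted p = 0.257). For the 9 muscle genes the median log2 fold change was -0.48, with 0 edgeR calls (0 at an unadjusted p under 0.05), with median summed levels of 1464 CPM in scratched and 4817 CPM in intact skin, and 8 inner root sheath genes a median of -1.01 and 0 edgeR calls, with 8 at an unadjusted p under 0.05. Of 8 neutrophil and monocyte genes 2 rose (Ly6c2 at 0.76 and Ms4a6c at 0.43), and of 3 dermal papilla genes 1 rose (Crabp1 at 0.76). In the interfollicular, sebaceous, adipocyte and stem cell lists 1 gene each fell, among them Krt77 (-0.60), Scd1 (-0.45) and Retn (-0.45). The part of these other cells in the Dlx3 result was not tested. Foxq1 at 7 d stood at 22.1, 39.4 and 53.8 CPM in intact and 23.5, 33.04 and 41.5 CPM in scratched skin. For Foxq1, 31 of 32 scratched mice were below the intact median. Its averaged log2 fold change was -0.26 (SE 0.06, adjusted p = 0.00256), which passed the adjusted p, as 4.86% of genes did in the same direction, but not the fold threshold.

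The effect of scratching was not shown to differ between 7 d and 24 h for any member. Of the 5 members tested, 0 were called by edgeR, by DESeq2 or by limma voom, and 0 had an unadjusted p under 0.05, while 5.79% of 12744 genes were called. The smallest p was that of Foxq1, whose scratching effect was smaller at 7 d by a log2 difference of 0.18 (95% interval -0.00 to 0.36, edgeR adjusted p = 0.245). For Hr the difference was 0.22 (95% interval -0.04 to 0.49, adjusted p = 0.342).

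With PBS alone, the study's main scratching comparison, 0 members were called at 24 h by edgeR, where 3.39% of 11872 genes were. Of the 5 members tested, 3 had an unadjusted p under 0.05, as had 2089 of all 11872 genes. Dlx3 stood at 5.36 to 20.03 CPM (median 8.97, n = 8) in intact and 1.61 to 8.40 CPM (median 4.72, n = 8) in scratched skin, at -0.93 (SE 0.29, adjusted p = 0.0841). Hoxc13 was at -0.48 (adjusted p = 0.154) and Foxq1 at -0.37 (adjusted p = 0.0887). At 7 d, 0 of 11800 genes (0.0%) were called by edgeR, with 1302 at an unadjusted p under 0.05 and 56 called by DESeq2. Among them the 4 members tested gave 0 unadjusted p-values under 0.05. By DESeq2, 0 members were called at either time.

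Over 35 comparisons of single groups, 154 tests of members gave 2 calls, while 1.06% of all tests over all genes were calls. Of the 154 tests, 36 had an unadjusted p under 0.05, for which the share over all genes is not given here. The calls were Hr in scratched against naive skin at 24 h, given above, and Hoxc13 in scratched against intact skin 7 d after nZnO. In the second, Hoxc13 stood at 17.7, 22.6 and 32.2 CPM in scratched and 23.0, 31.4 and 46.7 CPM in intact skin, with overlap. Its log2 fold change was -0.61 (SE 0.15, edgeR adjusted p = 0.0474), where 0.383% of genes were called lower. The call was lost in 13 of 16 cases of leaving out 1 mouse, and also with sequencing pool as a covariate (adjusted p = 0.0602). Without the mouse with conflicting labels, which belongs to this intact group, the adjusted p was 0.0278 (-0.67). No comparison of a nanomaterial with PBS, of PBS with naive skin or of 7 d with 24 h had a called member. Between nanomaterials and PBS the smallest adjusted p was that of Dlx3, at 1.05 (SE 0.34, edgeR adjusted p = 0.184) 7 d after nAg on intact skin, where it ran from 2.23 to 16.9 CPM (median 10.4) against 1.99 to 9.43 CPM (median 4.71) with PBS. The nAg and PBS mice of this comparison shared no sequencing pool, so that pool and nAg cannot be told apart.

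Of the 10 members, 7 followed the hair shaft keratins over the mice. This relation was tested for the members only. The share of all genes that would pass is not known, so the count is not shown to be particular to the members. The hair keratin level was the sum of Krt31, Krt33a, Krt33b, Krt34, Krt35, Krt36, Krt81, Krt83 and Krt86, the keratins of the hair cortex. It ran from 0 in 5 mice to 1351 CPM (median 25.03), and within each of the 19 groups it spread widely, as in the naive mice with 0 to 118 CPM. Msx2 had the strongest relation to it (Pearson r = 0.53, Spearman rho = 0.55). It was followed by Lef1 (r = 0.47, rho = 0.47), Hoxc13 (0.48, 0.46), Shh (0.45, 0.46), Fgf5 (0.44, 0.43), Dlx3 (0.39, 0.37) and Foxn1 (0.36, 0.37). In all 7 the permutation p was the smallest possible (1e-05, adjusted over the 10 members 1.4e-05), and rho was above 0 in each of the 5 pools. Without the 2 mice farthest from the median level, r was between 0.34 (Foxn1) and 0.52 (Msx2). After removal of the group means rho was between 0.33 (Dlx3) and 0.49 (Msx2), so that the relation was also seen among mice of the same group. Within single pools 6, 0, 7, 6 and 3 members passed in pools 1 to 5.

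Hr (r = 0.14, rho = 0.15), Foxq1 (0.14, 0.15) and Wnt10b (0.17, 0.16) did not pass this test over the 10 members (adjusted p of rho = 0.059 for each). The adjusted p of r was 0.09 for Hr and Foxq1 and 0.052 for Wnt10b. By r, Wnt10b passed without the shallow mouse (permutation p adjusted over the 10 members = 0.039) and without the mouse with conflicting labels (0.048). Without the 2 farthest mice r was 0.12, 0.13 and 0.16. In the pools rho ran from -0.03 to 0.33 for Hr, from -0.09 to 0.25 for Foxq1 and from 0.03 to 0.30 for Wnt10b. After removal of the group means, however, Hr (r = 0.17, rho = 0.19, permutation p of rho adjusted over the 10 members = 0.023) and Wnt10b (r = 0.19, rho = 0.17, adjusted p = 0.035) passed, which brought the count from 7 to 9 members, and Foxq1 (r = 0.07, rho = 0.08, adjusted p = 0.32) did not. The 7 other members also followed the inner root sheath genes (r = 0.33 to 0.54, rho = 0.34 to 0.58, largest permutation p adjusted over 110 relations = 1.8e-04). Such a relation is across whole pieces of skin, and the number of growing follicles in each piece was not measured here.

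**Figure D4:**
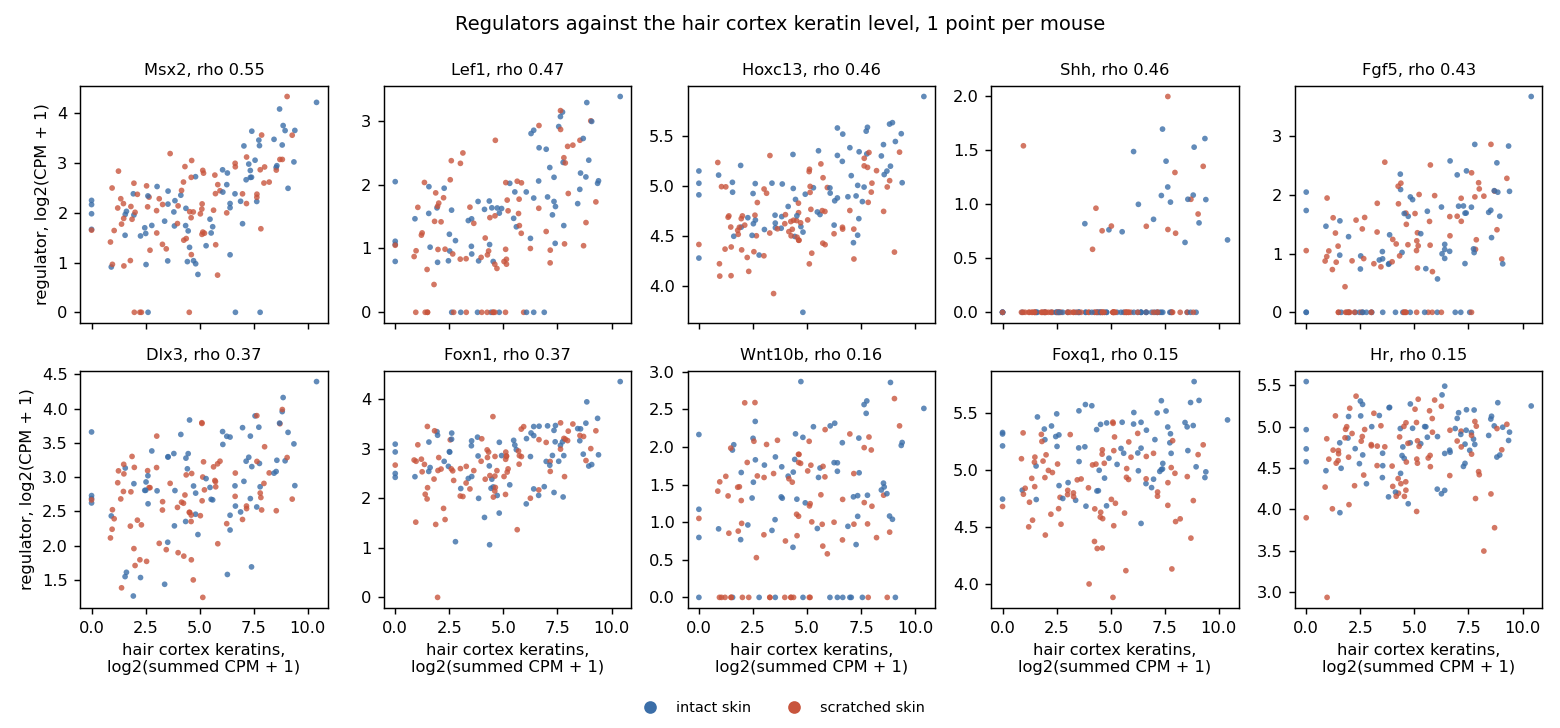
Level of each member, as log2(CPM + 1) (vertical axes), against the hair cortex keratin level, as log2(summed CPM + 1) (horizontal axes), with 1 point per mouse, intact skin in blue and scratched skin in red. Msx2 with rho of 0.55 and Lef1 with 0.47 rise with the keratins, whereas Hr and Foxq1, both with 0.15, show little slope.

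A single mouse, picked by its hair keratin level from the same 153 mice, serves as an example and not as separate evidence. Replicate 5 of the 24 h PBS group had the highest hair keratin level of all 153 mice, 1351 CPM. It was the first of its group in 9 of the 10 members, and the first of all mice in 5 of them, with 9.43 CPM of Lef1, 58.3 CPM of Hoxc13, 19.4 CPM of Foxn1, 20.03 CPM of Dlx3 and 11.8 CPM of Fgf5. It ranked 11 of 153 for Hr, 13 for Foxq1 and 8 for Wnt10b. These members did not pass the test over all mice, yet this mouse was the first of its group in each of them. Shh, with 1 count, was the exception.

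The genes whose levels were most like those of a member were looked up among 11996 genes averaging at least 5 CPM, by Spearman's rho of CPM over 153 mice and as a description. Those of Msx2 were hair and inner root sheath genes, namely Krt35 (0.61), Crym (0.60), Tchhl1 (0.59), Krt73 (0.59) and Gm11938 (0.58). Those of Lef1 were Krt87, Krt73, Krtap17-1, Krt35 and Krt83 (0.49 to 0.51). Hoxc13 and Fgf5 shared their first 2 genes, Padi3 (0.51 and 0.56), a protein-modifying enzyme of the follicle, and the gap junction gene Gja1 (0.49 and 0.55). Dlx3 was led by Krt32 (0.44) and Foxn1 by Krtap19-9b (0.44). Hr had other neighbours, which were the histone deacetylase gene Hdac5 (0.54), Amotl1 (0.51), Vdr (0.51), the gene of the vitamin D receptor, Wnk2 (0.50) and Ptprf (0.50). Foxq1 was nearest to Emp2 (0.64), Sh3rf2 (0.62), the transcription factor gene Gata3 (0.61), the epidermal lipoxygenase gene Alox12e (0.60) and the suprabasal keratin Krt77 (0.60). Wnt10b was nearest to Kctd15 (0.42) and Clec3b (0.41). Between members the closest pairs were Lef1 and Hoxc13 (0.43), Hoxc13 and Fgf5 (0.41) and Hr and Foxq1 (0.40).

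**Figure D5:**
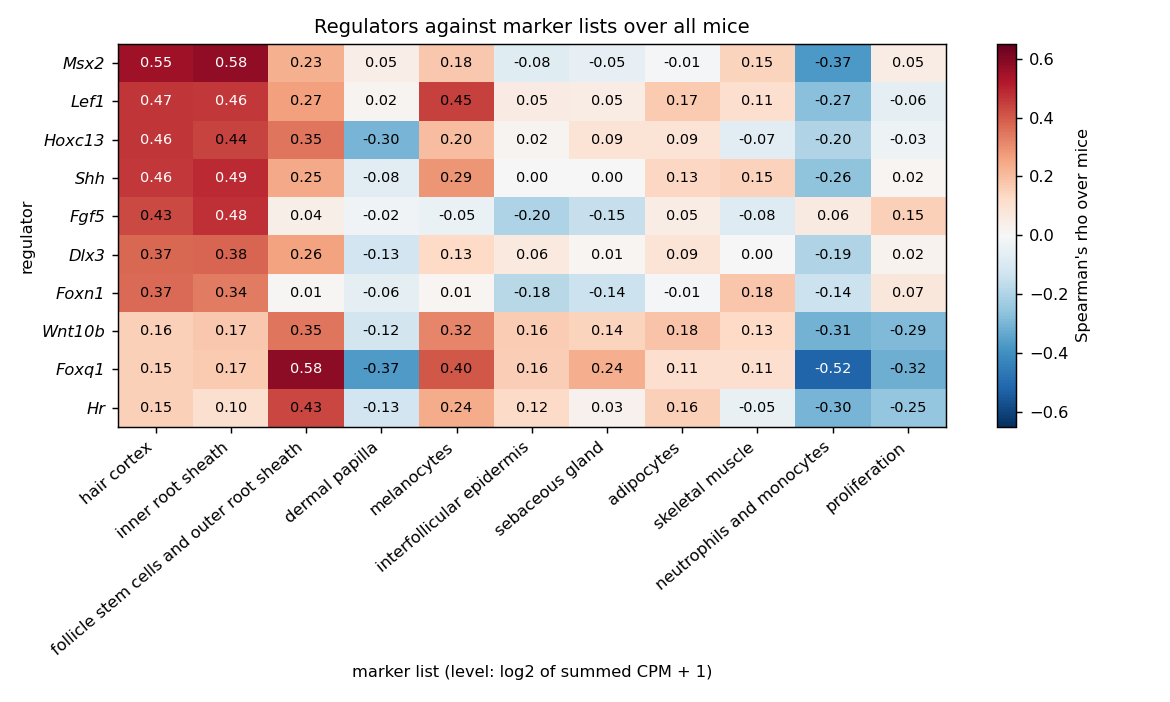
Spearman's rho over 153 mice between the 10 members and the summed levels of 11 lists of marker genes, in colour and in figures. The hair cortex and inner root sheath lists reach 0.58 with Msx2, and Foxq1 has 0.58 with the stem cell and outer root sheath list and -0.52 with the neutrophil and monocyte list.

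Because LEF1 is known to bind hair keratin promoters, the 250 bases before and 50 bases after the start of each gene were searched on both strands for CTTTGA, the core letters of a TCF/LEF site (GRCm39 with Gencode M39). The letters were in 8 of the 9 hair cortex keratin promoters searched, Krt35 being the exception, in 0 of the 10 member promoters and in 16.2% of 21247 promoters of protein-coding genes. These 21247 promoters did not cover every chromosome. The keratins lie in 2 clusters of related genes, so that their promoters are not independent sequences. The stretches around the single match of 6 keratins are printed 5′ to 3′ to show how alike they are, with the matching letters in capitals.
Krt31, chr11:99941609-99941628, minus strand: gtgacttCTTTGAagggcta
Krt33b, chr11:99920929-99920948, minus strand: ttggttaCTTTGAagccaaa
Krt36, chr11:99996704-99996723, minus strand: aaagactCTTTGAagtggca
Krt81, chr15:101361864-101361883, minus strand: tcaggcaCTTTGAagatgca
Krt83, chr15:101389557-101389576, minus strand: taaaggaCTTTGAagatgaa
Krt86, chr15:101371155-101371174, plus strand: gctggccCTTTGAaggagga
In all 6 the capitals are followed by ag. Of all 10 matches in the keratins 8 are, and those that are not lie in Krt33a and Krt34, which are not printed. The core followed by ag was in 1.94% of the 21247 promoters. The letters ag were noted in the keratin matches themselves, so this share is a description and not a test. A match describes these letters only and is not a measured site of binding.

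Of 28 Wnt pathway genes tested at 24 h, 2 rose and 7 fell in scratched skin, where 6.44% and 6.31% of all genes did, with a median log2 fold change of -0.14 beside -0.003 over all genes. Porcn, which adds the lipid that Wnt ligands need, rose (0.61, SE 0.10, edgeR adjusted p = 3.07e-06), while Lgr6, a receptor for Wnt-enhancing R-spondins (-0.71), the ligand Wnt3 (-0.62) and the Wnt inhibitor Nkd1 (-1.05) fell. Of 10 hedgehog pathway genes 0 rose and 2 fell, namely the co-receptor Cdon (-0.37, SE 0.11, adjusted p = 0.0111) and Disp1 (-0.39), which releases the ligand. The hedgehog receptor and target Ptch1 was at -0.29 (SE 0.13, adjusted p = 0.0767). Of 13 BMP pathway genes 2 fell, among them Bmp4 (-0.64). Of 14 genes of FGF and other hair cycle signals 1 rose, the growth factor Fgf7 (0.33), and 2 fell, Tgfb2 (-0.55) and the receptor Fgfr2 (-0.36). Of 22 other transcription factors of the follicle 1 rose, Grhl3 (0.38), and 2 fell, Egr2 (-0.36) and Gata3 (-0.34). At 7 d these 5 lists held 0 rises, with 1 fall in 13 genes of the BMP list and 1 in 22 transcription factors. In the Wnt, hedgehog and FGF lists 0 genes were called at 7 d by edgeR, with 9 of 29, 1 of 9 and 5 of 14 genes at an unadjusted p under 0.05. Of all 12451 genes tested at 7 d, 3193 had such a p.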

How the data were processed

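The authors deposited 1 table of raw UMI counts per gene and mouse, not normalized. Reads had been checked with FastQC and MultiQC, trimmed with Trimmomatic (reads under 20 bp dropped), tagged with Picard and Drop-seq tools 2.4.1 and aligned to GRCm39 with Gencode M28 by STAR 2.7.6a, per the paper's methods and the submitters' processing notes. The deposited RNA integrity number is a score without further processing. The 10 members, the marker and pathway lists and the tests were chosen with earlier results of these data known. Each mouse was put in its group by its name in the table, which for 1 mouse contradicts another label. Counts were fitted with edgeR 4.0.16 (TMM, quasi-likelihood) in R 4.3.3, on all groups of each comparison, after a filter that kept a gene when, in 1 or more groups, 75% or more of the mice had over 5 of its counts. Calls needed an adjusted p under 0.05 and a log2 fold change of at least 0.33. DESeq2 1.42.0, limma 3.58.1, other filters, pool and the hair keratin level as covariates, and left-out mice or pairs were tried as alternatives. The hair keratin level as a covariate, the fit without the mouse with conflicting labels, the nZnO and nAg pairs with pool, and left-out mice in the single-group comparisons were added after the data were seen. Relations used SciPy 1.17.1 with a pseudocount of 1. All members were described, and each nearest gene was chosen by Spearman's rho. The test was tested on simulated counts. Of the hair cortex list, 9 of 10 genes were used, and Krt85 was not analysed here. Mouse totals set the precision, which for members under about 2 CPM is a few counts per mouse.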

Additional observations from a re-analysis of the deposited data

Results flagged for a closer look

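In 17 of 171 sets of a member and a group (9.94%, Shh not tested), a mouse lay apart from the rest of its group by Dixon's 95% criterion. For normally distributed values chance alone passes it in about 1 of 20 sets. Levels that rest on a few counts per mouse need not be so distributed, so no excess over chance is shown. Msx2 was highest in a single mouse in 5 groups, namely replicate 5 of PBS at 24 h (17.67 CPM, next 9.17), replicate 2 of nZnO at 24 h (11.49, next 4.93), replicate 8 of nAg at 24 h (11.6, next 5.63), replicate 1 of scratched nTiO2 at 24 h (19.27, next 5.15) and replicate 2 of scratched PBS at 7 d (10.82, next 4.22). Each of these 5 mice had the highest hair keratin level of its group. The same was true of the mice with high Dlx3 in PBS (replicate 5, 20.03 CPM) and nTiO2 (replicate 8, 14.52 CPM) at 24 h, of Lef1 (5.482 CPM) and Fgf5 (6.265 CPM) in replicate 2 of scratched PBS at 24 h, of Foxn1 (9.222 CPM) and Wnt10b (1.317 CPM, 2 counts) in replicate 2 of scratched only at 24 h, and of Hoxc13 in replicate 3 of scratched nZnO at 7 d (32.18 CPM).

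The other mice apart from their group did not have its highest hair keratin level. In the 7 d PBS group, Hr was at 40.82 CPM in replicate 1 (next 24.9), and Hoxc13 at 44.76 CPM (9 counts) and Fgf5 at 4.974 CPM (1 count) in replicate 3, the mouse with the lowest total. Foxq1 was lowest in replicate 6 of nTiO2 at 7 d (28.65 CPM, next 38.9). Wnt10b was highest in replicate 6 of nZnO at 24 h (6.317 CPM, next 2.56).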

How the results depend on the processing

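Of the values of single members, 308 kept direction and side of the threshold under the alternatives that left out no single mouse, 24 lost the threshold, 12 gained it and 7 turned direction. In the averaged 24 h comparison the count of called members rose from 1 to 2, with Hoxc13 added, without the fold threshold, with DESeq2, with the filter in every group, with pool as a covariate, and without the nZnO or nAg pair. At 7 d the count of 1 became 3 without the fold threshold, 2 without the PBS pair, and 0 with no low-count filter, with the filter in every group (Dlx3 then not tested), without the nTiO2, nZnO or nAg pair, and with the hair keratin level as a covariate, an alternative added after seeing the data. In scratched PBS against PBS at 24 h, leaving out each mouse gave 0 to 1 called members (Dlx3 at -1.02, edgeR adjusted p = 0.0493, without replicate 6 of PBS). Of the 7 members related to the hair keratin level, 0 passed in pool 2 and 3 in pool 5, and with the group means removed Hr and Wnt10b passed as well (9 members). Directions turned for Hr at 7 d, from -0.013 to 0.0016 with no low-count filter, 0.050 without the nTiO2 pair, 0.047 in nZnO and nAg with pool as a covariate and 0.062 with the hair keratin level, for rho of Foxq1 in pool 1 (-0.087) and pool 2 (-0.028) and of Hr in pool 2 (-0.034), and for Dlx3 in scratched PBS at 7 d when a mouse was left out (-0.061 to 0.27). The cause was not tested. No paired analysis was possible because the mouse numbers only name mice and the deposited samples are pooled libraries. Pool as a covariate could not be fitted at 7 d over all 4 liquids, for PBS alone at 7 d or for the difference between times. At 24 h no mouse in the comparison had under 500000 counts, so leaving out shallow mice was not run there.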
